A study of Salmo salar with 40 samples.

Results

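Histone deacetylase 6 is represented by 2 of the 79140 gene entries counted in Atlantic salmon liver: hdac6, annotated as histone deacetylase 6, and LOC106572926, annotated as histone deacetylase 6-like. Both passed the filter on low counts, and the count table holds no other entry with that annotation. The members were picked by name because their level in lufenuron-exposed fish lay above that of controls at one sampling and below it at the other. Their lufenuron differences are therefore given as a description, with no test.

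Liver messenger RNA was sequenced from 40 Atlantic salmon, with 1 library per fish. Lufenuron, a benzoylurea inhibitor of chitin synthesis used against sea lice, was given at 5 mg/kg. The groups, of 10 fish each, were exposed fish of day 14, control fish of day 14 with a dose of 0, exposed fish of day 8 and control fish of day 8 with a dose of 0. Day 8 was 1 day and day 14 was 7 days after the treatment had ended. The sources used here give no strain, age, diet or tank. P-values and errors therefore measure only the spread between these fish, and an effect of tank or sampling occasion cannot be told apart from a group difference.

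In mammals, HDAC6 is a mainly cytoplasmic lysine deacetylase with a pair of catalytic domains and a zinc finger that binds ubiquitin. It removes acetyl groups from alpha-tubulin, from the actin-binding protein cortactin and from the chaperone HSP90. It also links ubiquitin-tagged misfolded proteins to the dynein motor, which carries them along microtubules to the aggresome for disposal by autophagy. The other classical histone deacetylases work mostly in the nucleus, within corepressor complexes that remove acetyl groups from histones, while the sirtuins are a separate family that consumes NAD.

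The RefSeq table of the salmon assembly Ssal_v3.1 lists hdac6 under gene number 106572925. LOC106572926 carries the next number, 106572926, and 0 rows of that table hold it. The sources used here name no build or annotation for the counts, and no coordinates are printed. Whether the entries are separate duplicates, neighbouring genes or pieces of one gene model was not tested. How reads that fit both were assigned is unknown, so the split between them is uncertain. The level of a gene is given below as CPM, the usual unit of read counts scaled for library size and composition. It is not corrected for transcript length, so a CPM of one entry is not compared with a CPM of the other as an amount of RNA.

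Between 43.4 M and 76.8 M reads per fish were assigned to genes. At the lowest depth 1 CPM corresponds to 41.8 reads. The labelled tissue was checked with 32 entries of hepatocyte genes such as albumin, apolipoprotein A-I and fibrinogen. Their summed level was 191000 ± 32900 CPM in day 14 exposed fish, 240000 ± 35500 CPM in day 14 controls, 234000 ± 41700 CPM in day 8 exposed fish and 222000 ± 35700 CPM in day 8 controls (SD, n = 10 each).

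At day 14, hdac6 was lower in exposed fish than in controls. It lay between 1.80 and 4.77 CPM in exposed fish, with a median of 2.11 CPM, against 1.91 to 8.22 CPM in control fish, with a median of 3.50 CPM. All but 1 of the exposed fish clustered at the bottom of the control range: 9 of 10 were below the control median, 2 were below every control, and 3 controls were above every exposed fish. The group means were 2.42 ± 0.87 CPM in exposed fish and 4.23 ± 2.14 CPM in controls (SD, n = 10 each). The log2 fold change, exposed over control, was -0.80 ± 0.22 (SE). The exposed fish apart from the rest was fish 2, at 4.77 CPM; without it the log2 fold change was -0.97. Without control fish 7, the highest of its group, it was -0.64. In bulk liver, fewer cells of a type and less RNA per cell cannot be told apart.

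At day 8 the order of the groups was the opposite. The exposed fish held 3.63 to 7.19 CPM of hdac6, with a median of 4.94 CPM, against 2.02 to 5.54 CPM in control fish, with a median of 2.57 CPM. All 10 exposed fish were above the control median, 4 were above every control, and 9 of the 10 controls were below every exposed fish. Control fish 7, at 5.54 CPM, was the one control inside the exposed range. The means were 5.26 ± 1.17 CPM in exposed fish and 2.94 ± 0.99 CPM in controls (SD, n = 10 each), a log2 fold change of 0.84 ± 0.22 (SE). Without control fish 7 it was 0.98.

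LOC106572926 showed the same arrangement of groups. At day 14 it lay between 0.975 and 2.55 CPM in exposed fish, with a median of 1.43 CPM, against 1.02 to 3.77 CPM in control fish, with a median of 2.17 CPM. Again 9 of 10 exposed fish were below the control median and 3 controls were above every exposed fish, so the ranges overlapped over most of their length. The log2 fold change was -0.56 ± 0.21 (SE), from means of 1.56 ± 0.51 CPM in exposed fish and 2.30 ± 0.98 CPM in controls (SD, n = 10 each).

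At day 8, LOC106572926 ranged from 2.08 to 5.32 CPM in exposed fish, with a median of 2.93 CPM, against 0.948 to 2.63 CPM in control fish, with a median of 1.5 CPM. Of the exposed fish 7 were above every control, and control fish 7 was again the only control within the exposed range. The means were 3.09 ± 0.91 CPM in exposed fish and 1.55 ± 0.45 CPM in controls (SD, n = 10 each), a log2 fold change of 0.99 ± 0.21 (SE). The largest value, 5.32 CPM, belonged to exposed fish 2; without it the log2 fold change was 0.87.

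**Figure D1:**
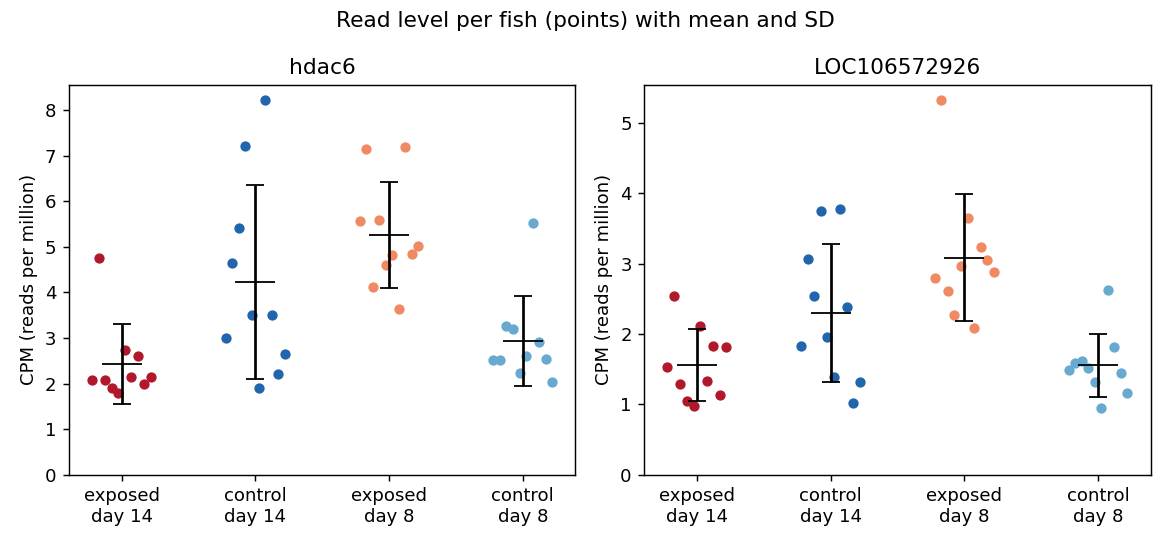
CPM of hdac6 (left) and LOC106572926 (right) in each of the 40 fish, by group; points are fish, the horizontal bar is the group mean and the whiskers its SD (n = 10). In both panels the exposed fish of day 8 form the group with the highest mean, the exposed fish of day 14 lie low, and the controls of day 14 are the most spread, from 1.91 to 8.22 CPM for hdac6.

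The difference between the lufenuron effects of the 2 days, day 14 minus day 8, was -1.64 ± 0.31 on the log2 scale for hdac6 and -1.55 ± 0.30 for LOC106572926 (SE). Set against all 30397 genes measured, 208 genes (0.684%) had a log2 fold change of at least 0.5 at day 8 together with one of at most -0.5 at day 14. The members belong to this set by the way they were chosen. With edgeR's quasi-likelihood test at an adjusted p of 0.05, 0% of all genes were called for lufenuron at day 14, although 8.02% reached an unadjusted p under 0.05. DESeq2 called 1 gene higher and 19 lower at that day. At day 8, 1.63% of all genes were called, 0.467% higher and 1.16% lower, and 16.1% reached an unadjusted p under 0.05. For the difference between the days it was 0.0493%, with 0.0263% higher and 0.023% lower.

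The opposite signs at the 2 days went with movements in both kinds of fish. In exposed fish the log2 fold change of day 14 over day 8 was -1.12 ± 0.22 for hdac6 and -0.98 ± 0.21 for LOC106572926 (SE). All 10 exposed fish of day 14 were below the day 8 median for each gene, in a contrast where 34.9% of all genes were called, 17.7% higher and 17.2% lower. In control fish the log2 fold changes ran the other way, at 0.52 ± 0.22 for hdac6 and 0.57 ± 0.21 for LOC106572926, with 8 and 7 of 10 day 14 controls above the day 8 median. In controls 19.3% of all genes were called, 10.4% higher and 8.97% lower. These changes are made of the same groups as the lufenuron differences and are no separate evidence.

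By mean level, both genes had the same groups in the first and the second place. For hdac6 the day 8 exposed fish came first (5.26 CPM), then the controls of day 14 (4.23 CPM), the controls of day 8 (2.94 CPM) and the exposed fish of day 14 (2.42 CPM). Each step between neighbours in this order was smaller than the SD of at least one of the groups it joins. For LOC106572926 the lower end was a tie, with means of 1.56 CPM in exposed fish of day 14 and 1.55 CPM in controls of day 8. Added together, the reads of the entries came to 3.98 ± 1.34 CPM in day 14 exposed fish, 6.53 ± 3.08 CPM in day 14 controls, 8.34 ± 1.89 CPM in day 8 exposed fish and 4.49 ± 1.41 CPM in day 8 controls (SD, n = 10 each).

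One group contrast does not use what picked the members: the change between days averaged over exposed and control fish. With 10 fish per group it is independent of the lufenuron difference at either day if the groups are equally spread. For hdac6 the SD at day 14 was 0.87 CPM in exposed fish and 2.14 CPM in controls, so the independence is approximate. On it hdac6 had a log2 fold change, day 14 over day 8, of -0.30 ± 0.15 (SE), with a 95% interval of -0.60 to 0.01, and did not pass (adjusted p = 0.112, edgeR quasi-likelihood test). LOC106572926 had a log2 fold change of -0.21 ± 0.15, with an interval of -0.51 to 0.09, and did not pass either (adjusted p = 0.265). Sampling day was a large contrast for the transcriptome as a whole: 43% of the 30397 genes were called, 21.5% higher and 21.4% lower at day 14. The value of hdac6 lay near the threshold. It passed without control fish 4 of day 14 (adjusted p = 0.0493), without control fish 7 of day 14 (adjusted p = 0.0314) and without exposed fish 2 of day 14 (adjusted p = 0.0332), with log2 fold changes of -0.35, -0.38 and -0.37. These fish had high hdac6 levels in their groups. The other 37 of the 40 fits that left out 1 fish did not pass, with adjusted p up to 0.237.

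The entries also varied together from fish to fish. After subtraction of the group means, which removes the differences that picked the members, log2 CPM of hdac6 and of LOC106572926 had a Pearson r of 0.86 and a Spearman rho of 0.83 over 40 fish. The permutation p, with labels shuffled within groups, was 1e-05 for each, the smallest that 100000 resamples can give. Without the 2 fish farthest from the median of hdac6, r was 0.83. The pair was proposed with these data known and its co-variation was part of the description asked for, so this p is not independent support. Pooled without centring, r was 0.91, a value that includes the group differences.

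Within single groups r ran from 0.65 to 0.94. Among controls of day 14, r was 0.94 (two-sided permutation p = 1.6e-04, adjusted over the 4 groups 3.2e-04), and 0.88 without the 2 fish farthest from the median. In exposed fish of day 14, r was 0.86 (permutation p = 1e-05, adjusted 4e-05), and it was 0.86 again without the 2 farthest fish. For controls of day 8, r was 0.81 (permutation p = 0.00853, adjusted 0.0114), and for exposed fish of day 8 it was 0.65 (permutation p = 0.041, adjusted 0.041). At day 8, without the 2 fish farthest from the median, r was 0.33 in exposed fish and 0.48 in controls. Leaving out the extreme fish narrows the range, which by itself can lower r, and whether it did so here was not tested. In exposed fish of day 8 the Spearman rho over all 10 fish was 0.45, with a permutation p of 0.193. A difference between the groups in r was not tested. Like the group-centred p, these p-values are not independent support, since the co-variation was part of the description asked for.

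**Figure D2:**
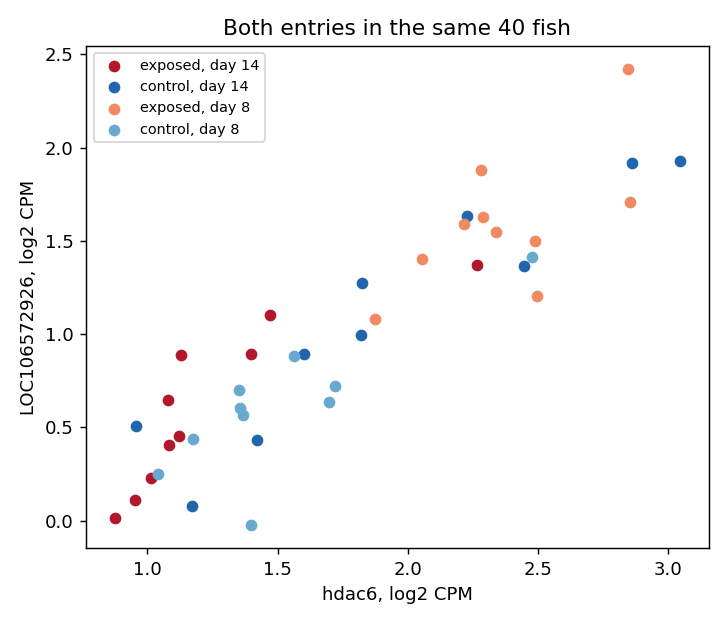
Log2 CPM of LOC106572926 (vertical) against log2 CPM of hdac6 (horizontal) for each of the 40 fish, coloured by group. The points follow one rising band (r = 0.91 pooled, 0.86 with group means removed), with most exposed fish of day 8 in its upper part and most exposed fish of day 14 at its lower end.

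The same fish often stood out for both. Control fish 7 of day 14 had the highest level of both entries in its group (8.22 CPM of hdac6 and 3.77 CPM of LOC106572926), as had control fish 7 of day 8 (5.54 and 2.63 CPM) and exposed fish 2 of day 14 (4.77 and 2.55 CPM). Exposed fish 5 of day 14 and exposed fish 7 of day 8 were the lowest of their groups for both. In exposed fish of day 8 the highest fish differed, fish 8 for hdac6 (7.19 CPM) and fish 2 for LOC106572926 (5.32 CPM). The lowest fish differed in both control groups. At day 14 it was control fish 6 for hdac6 (1.91 CPM) and control fish 9 for LOC106572926 (1.02 CPM). At day 8 it was control fish 10 for hdac6 (2.02 CPM) and control fish 6 for LOC106572926 (0.948 CPM).

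The spread between fish was much wider than counting error. Within groups the SD of log2 CPM was 0.481 for hdac6 and 0.48 for LOC106572926, while counting error alone gives 0.109 and 0.143 at these read numbers. The ratio of hdac6 reads to LOC106572926 reads was steadier, with a within-group SD of 0.256 on the log2 scale, against 0.18 from counting. In linear terms it averaged 1.58 ± 0.25 in day 14 exposed fish, 1.82 ± 0.31 in day 14 controls, 1.76 ± 0.37 in day 8 exposed fish and 1.91 ± 0.35 in day 8 controls (SD, n = 10 each). The ranges of all 4 groups overlapped, from 1.19 to 1.87 in exposed and 1.38 to 2.18 in control fish at day 14, and from 1.32 to 2.47 in exposed and 1.58 to 2.74 in control fish at day 8. Between days the log2 ratio was 0.74 ± 0.26 at day 14 and 0.85 ± 0.27 at day 8 (SD, n = 20 each), a change of -0.10 averaged over exposed and control fish (two-sided permutation p = 0.198). This ratio depends on the lengths of the entries and on how shared reads were assigned, so only its variation between fish can be read.

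**Figure D3:**
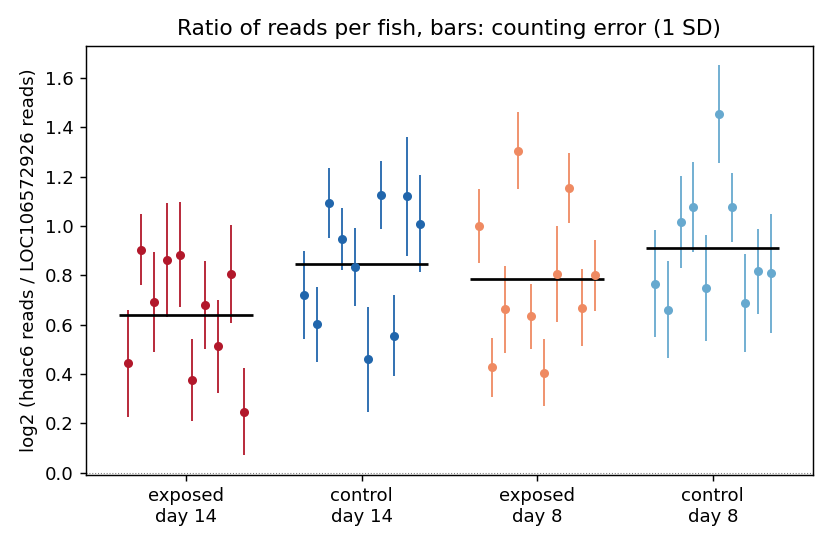
Log2 of hdac6 reads over LOC106572926 reads for each fish, by group; vertical bars are 1 SD of counting error and black lines are group means. Every fish had more reads of hdac6, and the groups overlap throughout.

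Genes whose level followed hdac6 most closely from fish to fish were ranked by r on group-centred log2 CPM over 40 fish, with 21420 other genes at a mean of at least 1 CPM compared. LOC106572926 held rank 1 of that list for hdac6, and hdac6 held rank 1 for LOC106572926. The co-variation of the pair was part of the description asked for, so these ranks are not independent support. Whether shared reads or a shared gene model account for them was not tested. Rank 2 of both lists was LOC106609493, the G protein subunit G(i) alpha-1, which passes receptor signals to adenylyl cyclase, with r of 0.74 for hdac6 and 0.75 for LOC106572926. For hdac6 the next were bag5, a co-chaperone of HSP70 (r = 0.72), the uncharacterized LOC106612462 (r = 0.70) and ttpa, the liver transfer protein for vitamin E (r = 0.69). For LOC106572926 they were cssa16h19orf44 (r = 0.68), the histone acetyltransferase gene myst2 (r = 0.68) and LOC106585105, similar to MAX dimerization protein 1 (r = 0.67). The median r over all genes ranked was -0.01 for hdac6 and 0 for LOC106572926. The lufenuron differences of these followers were smaller than those of the members. LOC106612462 had the members' signs, with log2 fold changes of -0.26 at day 14 and 0.39 at day 8. So had bag5, at -0.07 and 0.15. The others did not: LOC106609493 was at -0.39 at day 14 and -0.02 at day 8, and ttpa at 0.06 and 0.19. In the same order of days, cssa16h19orf44 was at 0.02 and -0.11, myst2 at -0.08 and -0.01, and LOC106585105 at 0.07 and 0.22.

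In the RefSeq assembly, hdac6 stands between LOC106590683 and cdk20. LOC106590683 did not pass the filter on low counts, with at most 19 reads in a fish. The gene cdk20, a kinase of the cyclin-dependent family, was at 0.625 ± 0.337 CPM in day 14 exposed fish, 0.864 ± 0.627 CPM in day 14 controls, 1.98 ± 0.58 CPM in day 8 exposed fish and 1.18 ± 0.29 CPM in day 8 controls (SD, n = 10 each). Its log2 fold change with lufenuron was -0.46 ± 0.31 at day 14 (adjusted p = 0.736) and 0.75 ± 0.31 at day 8 (adjusted p = 0.196), neither past the threshold in edgeR's quasi-likelihood test. It fell between days by 1.05 ± 0.22 on the log2 scale (adjusted p = 1.48e-04), and its group-centred r with hdac6 was 0.41.

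Of the other 18 measured histone deacetylase entries, 0 were called for lufenuron at either day by edgeR's quasi-likelihood test, and 0 by DESeq2. Of all genes, edgeR called 0% at day 14 and 1.63% at day 8, so these counts do not set the family apart. At an unadjusted p under 0.05 there were 2 at day 14, both higher in exposed fish, and 3 at day 8, of which 1 was higher, beside 8.02% of all genes at day 14 and 16.1% at day 8. The median log2 fold change of these 18 was 0 at day 14 and -0.04 at day 8, beside medians of 0.0042 and 0.0052 over all genes. The entry nearest to the members in size at day 8 was LOC106586120, similar to histone deacetylase 4, a signal-responsive corepressor. It was at 1.61 ± 0.72 CPM in exposed fish and 0.782 ± 0.527 CPM in controls (SD), a log2 fold change of 1.05 ± 0.38 (SE, adjusted p = 0.142). Each of the 10 exposed fish exceeded the median of the controls. At day 14 its log2 fold change was 0.41 ± 0.40, on the same side as at day 8. The gene for hdac10, the other class IIb enzyme, which deacetylates polyamines in mammals, had log2 fold changes of 0.20 ± 0.09 at day 14 and -0.03 ± 0.09 at day 8.

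**Figure D4:**
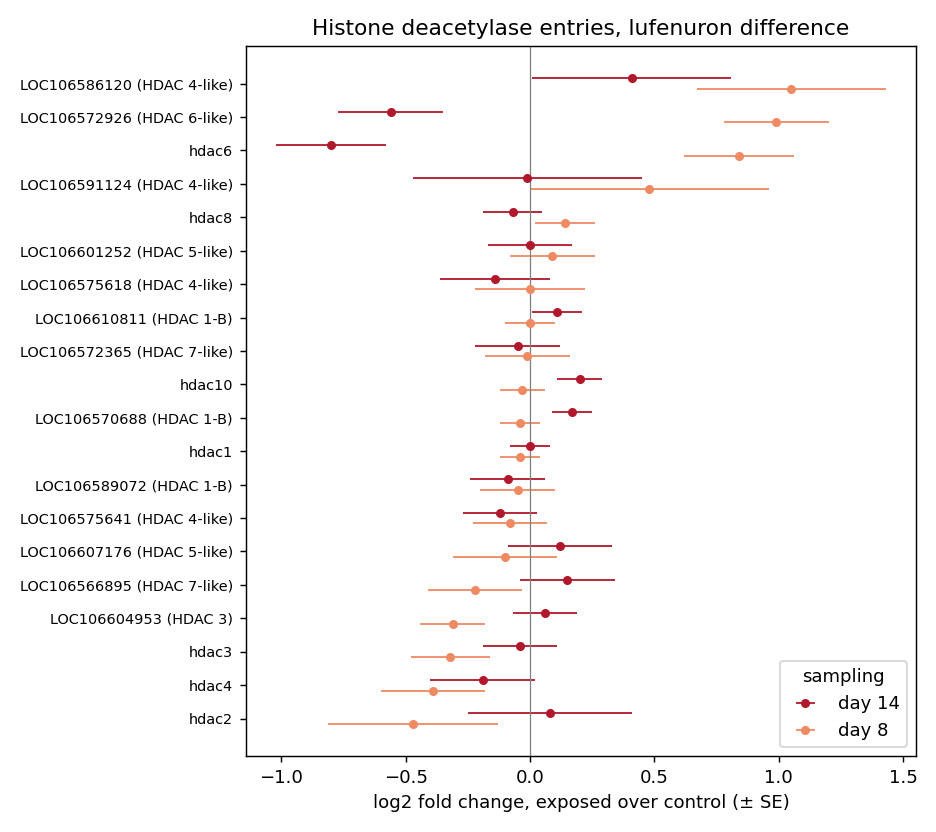
Log2 fold change of exposed over control fish (points, with SE) for the 20 measured histone deacetylase entries, at day 14 (upper point of each pair) and day 8 (lower point), sorted by the day 8 value. hdac6 (-0.80 and 0.84) and LOC106572926 (-0.56 and 0.99) lie well to the left of zero at day 14 and well to its right at day 8.

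The change between days, which carries the test, moved the rest of the family in both directions. Of the 18 entries 5 rose and 5 fell at day 14, a share of 55.6% called beside 43% of all genes. The nuclear class I gene hdac3 rose by 0.57 ± 0.11 on the log2 scale (adjusted p = 5.64e-05). Its level was 6.99 CPM in exposed fish and 7.19 CPM in controls of day 14, against 4.28 CPM in exposed fish and 5.33 CPM in controls of day 8. Its second entry LOC106604953 rose by 0.42 ± 0.09, and the class I entry LOC106589072, similar to histone deacetylase 1, by 0.59 ± 0.11 (adjusted p = 2.55e-04 and 2.02e-05). The class IIa entry LOC106586120 fell by 1.54 ± 0.28 (adjusted p = 2.06e-05), to 0.444 CPM in exposed fish and 0.334 CPM in controls of day 14. The gene hdac4 fell by 0.56 ± 0.15 (adjusted p = 0.00255). Of class I, hdac8 fell as well, by 0.29 ± 0.08 (adjusted p = 0.0047). LOC106575641, LOC106575618 and LOC106591124, similar to histone deacetylase 4, were not called. Neither were LOC106570688 and LOC106610811, similar to histone deacetylase 1. For hdac1, at 55.7 CPM in exposed fish and 55.6 CPM in controls of day 14, the rise was 0.15 ± 0.06 (adjusted p = 0.0409).

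Among 12 measured sirtuin entries, 0 were called for lufenuron at either day by edgeR or by DESeq2. The share of all genes called by edgeR was 0% at day 14 and 1.63% at day 8. At an unadjusted p under 0.05 there were 0 at day 14 and 2 of 12 at day 8, both lower in exposed fish, beside 16.1% of all genes at day 8. The median log2 fold change was 0 at day 14 and -0.13 at day 8. Between days 3 rose and 3 fell, or 50% of the entries beside 43% of all genes. LOC106604510, similar to the nuclear deacetylase sirtuin-1, rose by 1.17 ± 0.15 on the log2 scale (adjusted p = 3.19e-08), and sirt2, whose product also deacetylates tubulin in mammals, fell by 0.30 ± 0.07 (adjusted p = 7.98e-04).

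The known substrates and partners of HDAC6 were examined next. Of 33 entries for tubulin acetylation and HDAC6 substrates, 0 were called for lufenuron at either day by edgeR or DESeq2. The edgeR share of all genes was 0% at day 14 and 1.63% at day 8. At an unadjusted p under 0.05 there were 1 at day 14 and 3 at day 8 (all genes: 8.02% and 16.1%). The median log2 fold change was -0.02 at day 14 and -0.09 at day 8. Between days 11 rose and 4 fell, a share of 45.5% that is near the 43% of all genes. The heat shock protein gene hs90a, for HSP90-alpha, rose by 4.71 ± 0.56 on the log2 scale (adjusted p = 1.82e-08), with a wide spread at day 14. Its level was 25.9 ± 26.4 CPM in exposed fish and 30.5 ± 65.4 CPM in controls of day 14, against 1.01 ± 0.56 CPM in exposed fish and 1.15 ± 0.38 CPM in controls of day 8 (SD). A second HSP90-alpha entry, LOC106608136, rose by 2.98 ± 0.39 (adjusted p = 9.27e-08). Most HSP90 reads came from other entries that rose less, hsp90ab1 by 0.43 ± 0.10 and hs90b by 0.47 ± 0.09 (adjusted p = 6.59e-04 and 9.75e-05). In exposed fish of day 14 their levels were 1260 and 493 CPM. The alpha-tubulin entries LOC106575781 and LOC106582509 rose by 1.28 ± 0.16 and 1.01 ± 0.13 (adjusted p = 2.26e-08 and 4.27e-08). Among the 4 falls were the alpha-tubulin gene tba1a, by 0.70 ± 0.16 (adjusted p = 3.28e-04), and the cortactin entry LOC106561907, by 0.37 ± 0.09 (adjusted p = 4.8e-04).

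Of 42 entries for the handling of ubiquitin-tagged proteins and the aggresome, 0 were called for lufenuron at either day by edgeR or DESeq2. For all genes the edgeR share was 0% at day 14 and 1.63% at day 8. At an unadjusted p under 0.05 there were 0 at day 14 and 3 at day 8, where all genes gave 8.02% and 16.1%. The median log2 fold change was -0.03 at day 14 and 0.01 at day 8. Between days 15 rose and 10 fell, a share of 59.5% beside 43% of all genes. The autophagy receptor entry LOC106589302, similar to NBR1, fell by 0.94 ± 0.13 on the log2 scale (adjusted p = 4.01e-07). The co-chaperone gene bag3, which directs proteins to the aggresome, rose by 1.83 ± 0.27 (adjusted p = 9.34e-07), at a low level. It was at 0.431 CPM in exposed fish and 0.634 CPM in controls of day 14. At day 8 it was at 0.127 and 0.164 CPM. The heat shock transcription factor gene hsf2 fell by 0.43 ± 0.06 (adjusted p = 1.08e-06).

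Of 50 entries for corepressor complexes, 1 fell with lufenuron at day 8, beside 1.16% of all genes that fell at that day. This was LOC106568749, similar to TBL1XR1, a subunit of the NCoR complex, which fell by 0.84 ± 0.21 on the log2 scale (adjusted p = 0.0327, edgeR). Its level at day 8 was 0.674 CPM in exposed fish and 1.21 CPM in controls. The other measured TBL1XR1 entries had higher levels and were not called. Their log2 fold changes at day 8 were -0.03 ± 0.21 (LOC106584305), 0.11 ± 0.14 (LOC106598815) and -0.05 ± 0.11 (tbl1xr1). At day 14 none of the 50 was called by either tool, where edgeR called 0% of all genes. An unadjusted p under 0.05 was reached by 2 at day 14, beside 8.02% of all genes. At day 8 there were 12 with an unadjusted p under 0.05, 4 of them higher in exposed fish, beside 16.1% of all genes. DESeq2 called 3 falls at day 8, where it called 2.18% of all genes lower. The median log2 fold change was 0.06 at day 14 and 0.02 at day 8. Between days 16 rose and 16 fell, a share of 64% beside 43% of all genes. Among the falls was the scaffold gene sin3a, which fell by 1.26 ± 0.13 (adjusted p = 1.42e-09). Of the further entries similar to SIN3A, LOC106587652 had a log2 fold change of -0.18 ± 0.06 (adjusted p = 0.0134). LOC106587828, at 0.47 ± 0.26, was not called (adjusted p = 0.138). Among the rises was the corepressor gene rcor1, by 0.58 ± 0.07 (adjusted p = 4.7e-08). Of 29 acetyltransferase entries, edgeR called 0 for lufenuron at either day (all genes: 0% at day 14, 1.63% at day 8). All but 1 of the 29, naa15, are for lysine acetyltransferases, which oppose the deacetylases. At an unadjusted p under 0.05 there were 0 at day 14 and 5 at day 8, beside 16.1% of all genes at day 8. DESeq2 called 2 falls at day 8, kat2a and LOC106600977, beside the 2.18% of all genes. The median was 0.03 at day 14 and 0.08 at day 8. Between days 6 rose and 13 fell, a share of 65.5% beside 43% of all genes. The lysine acetyltransferase gene kat2a rose by 0.55 ± 0.09 (adjusted p = 1.48e-06). Among the 13 falls was LOC106606488, similar to CREB-binding protein, by 0.33 ± 0.06 (adjusted p = 5.78e-05). Entries with this annotation went both ways: LOC106589530 rose by 0.29 ± 0.05 (adjusted p = 2.80e-06). LOC106564464, LOC106601889 and LOC106593588 fell, with log2 fold changes of -0.21, -0.37 and -0.32, and LOC106590442 was not called. The gene naa15, for a subunit of an N-terminal acetyltransferase, rose by 1.05 ± 0.12 (adjusted p = 1.20e-08).

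Body weight and sequencing depth within groups were compared with the members over 40 fish, in 4 relations. For body weight the group-centred r was 0.11 for hdac6 (permutation p = 0.635, adjusted 0.82; rho 0.20, p = 0.255) and 0.18 for LOC106572926 (p = 0.394, adjusted 0.82; rho 0.21, p = 0.245). For log2 total counts r was -0.04 (p = 0.82, adjusted 0.82; rho 0.06, p = 0.718) and -0.06 (p = 0.689, adjusted 0.82; rho -0.08, p = 0.626). Without the 2 fish farthest from the median of body weight or of total counts, r lay between -0.11 and 0.18. Some recorded weights among the controls of day 14 stood apart from the lengths. Fish 7 was recorded with 18 g at 16.5 cm and fish 10 with 17 g at 15.4 cm, while fish 4 had 42 g at 16.2 cm. Fish 6, with 18 g, was 11.9 cm long. These weights are part of the correlations with body weight. Without fish 6, 7 and 10 the lufenuron log2 fold change at day 14 was -0.80 for hdac6 and -0.60 for LOC106572926.

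Markers of other cell types were measured beside the members. Those of exocrine pancreas, a tissue that lies along liver vessels in some fish species, leaned to exposed fish at both days without passing the test. Whether these reads came from within the liver or from tissue beside it was not tested. Of 26 measured pancreas entries 23 had positive log2 fold changes at day 14 and 24 at day 8, with 0 called. Over all genes, 0% were called by edgeR at day 14 and 1.63% at day 8. The pancreas medians were 1.93 at day 14 and 1.36 at day 8, beside 0.0042 and 0.0052 over all genes. In all fish 8 of the 49 listed pancreas entries were at 0. The summed level was 7.24 to 348 CPM in day 14 exposed fish, 6.68 to 209 CPM in day 14 controls, 6.99 to 206 CPM in day 8 exposed fish and 7.45 to 142 CPM in day 8 controls. The group-centred r of the members with this sum was -0.10 for hdac6 and -0.20 for LOC106572926. With the log2 sum as a covariate, a choice made after the data were seen, the log2 fold changes of hdac6 were -0.75 at day 14 and 0.88 at day 8, and those of LOC106572926 were -0.48 and 1.05. Of the 26 measured hepatocyte entries 22 had negative log2 fold changes at day 14 and 19 had positive ones at day 8, the same signs as the members, and 0 were called at either day. Their medians were -0.27 at day 14 and 0.08 at day 8, beside the same 0.0042 and 0.0052 over all genes. The group-centred r of the hepatocyte sum was 0.19 with hdac6 and 0.28 with LOC106572926. In all fish 1 of the 32 listed hepatocyte entries was at 0. Of 28 measured erythrocyte entries 20 rose between days, in a contrast where 21.5% of all genes rose. The group-centred r of the erythrocyte sum was -0.30 with hdac6 and -0.25 with LOC106572926. Of 7 measured gut and bile duct entries all 7 had positive log2 fold changes at day 8 (median 2.16, 0 called). Between days 6 of these entries, beside 21.4% of all genes, fell (median -2.15). Their sum reached 242 CPM in exposed fish 3 of day 8, against a median of 11.8 CPM in that group, and its r was -0.04 with hdac6 and -0.06 with LOC106572926. The part of these cell types in the members' values was not tested.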

How the data were processed

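Per the labels' protocols, poly-A RNA of liver was made into libraries with NEBNext reagents. The authors deposited raw read counts as whole numbers for each gene entry in each fish, not normalized. HISAT2, HTSeq, Cufflinks and DESeq2 are named, per the submitters' processing notes, but no role or version. The sources used here state neither build, annotation nor use of strand.

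In R 4.3.3, edgeR 4.0.16 was the main tool, with its dependency limma 3.58.1. Genes kept by filterByExpr (minimum count 10, minimum total 15) numbered 30397, with 99.9% of all counts. A robust quasi-likelihood model with TMM scaling took all 40 fish, each group having its own mean. Benjamini-Hochberg adjustment ran over all genes, and 0.05 was the threshold. The fit was checked on simulated data with few changed genes and with changes larger than those tested for the members. Changes as small as those of the members were not simulated. For correlations a prior count of 2 was added before log2 CPM, and permutation tests were two-sided with 100000 resamples. DESeq2 1.42.0 was an alternative.

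The members and the gene lists were chosen with earlier results of these data known. Lists were matched by symbol or by the annotated name without endings such as -like; "probable" was dropped too. Genes named beside the members are the 5 with the highest group-centred r for each, the nearest gene on each side of hdac6, any deacetylase or sirtuin entry, and up to 4 called entries of each other list, smallest p first. LOC106568749, kat2a, LOC106600977, tba1a, LOC106561907 and LOC106606488 were named after their values were seen. So were the further entries for TBL1XR1, SIN3A, CREB-binding protein and HSP90. Promoter and protein sequences are not analysed here. No library looked like a repeat of another: over 780 pairs the smallest chi-square per gene was 50.4 (22080 genes).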

Additional observations from a re-analysis of the deposited data

Results flagged for a closer look

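In 12 checks of a group of 10 fish, 5 showed a fish far from the others, with a gap to its nearest neighbour of more than 0.466 of the range of the group. The checks ran on CPM and on the plain ratio, without logs. Chance gives about 1 such flag in 20 groups only for normally distributed values, and log2 values were not checked. The checks also share fish, so they are not independent. The highest fish for hdac6 were exposed fish 2 of day 14, at 4.77 CPM, and control fish 7 of day 8, at 5.54 CPM. For LOC106572926 they were exposed fish 2 of day 8, at 5.32 CPM, and control fish 7 of day 8, at 2.63 CPM. The ratio of hdac6 reads to LOC106572926 reads was highest in control fish 6 of day 8, at 2.74. On the CPM scale, control fish 7 of day 8 was thus far from its group for both entries.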

How the results depend on the processing

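The lufenuron log2 fold changes of both members kept their sign under all alternatives, among them RLE factors, no filter on low counts, DESeq2, body weight as a covariate and leaving out single fish. The members were picked on these signs in the same fish, so the kept signs are no separate support. Over the 40 fits that left out 1 fish, hdac6 lay between -0.97 and -0.64 at day 14 and between 0.78 and 0.98 at day 8; LOC106572926 lay between -0.67 and -0.45 and between 0.87 and 1.1. With total counts as the only scaling the day 14 values were -0.62 and -0.39, while the median of all genes moved to 0.19 at that day. Averaged over exposed and control fish, the change between days was -0.38 to -0.21 for hdac6 (adjusted p between 0.0314 and 0.237) and -0.26 to -0.14 for LOC106572926 (adjusted p between 0.148 and 0.449) in these 40 fits, and the count of genes called was 12475 to 13612. No pairing of fish by replicate number was seen. Same-numbered fish of 2 groups had a median r of -0.01 in their deviations over 60 pairs (-0.32 to 0.35). In 9 of these 60 pairs the best match in the other group had the same number. Whether same-numbered fish shared a tank or batch was not tested. With the replicate number as a block, hdac6 was at -0.34 and passed (adjusted p = 0.0488), and the count called was 12568; the cause was not tested. The group-centred r of the members lay between 0.83 and 0.86 over 6 alternatives. Depth limits LOC106572926 most, with as few as 52 reads in a fish.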
